A study of Mus musculus with 12 samples.

Results

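Telomerase holoenzyme genes encode the enzyme that adds telomere repeats to chromosome ends, together with the proteins that hold, deliver or accompany its RNA. The set comprised 8 mouse genes (Tert, Terc, Dkc1, Nop10, Nhp2, Gar1, Wrap53 and Tep1), chosen by gene symbol in the annotation of the array's probe sets, called probes here. Of these, 7 had a probe, out of 19938 genes with 1 symbol, and each was read by a single probe. The older symbols of Gar1, Nhp2, Nop10 and Wrap53 (Nola1, Nola2, Nola3 and Wdr79) were accepted too, but the annotation used the current ones. Tep1 was not found in the probe annotation and was not analysed here.

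The arrays measured total liver RNA of 12 male C57BL/6J mice, 1 array per animal. Of these, 3 were mTERT KO and 3 mTR KO, with 3 WT mice for each line, where mTERT is the mouse Tert gene and mTR is the mouse Terc gene. The KO animals were first-generation (G1) nulls, that is, from the first generation without telomerase, and were matched to their WT mice by age and sex. The mice came in 3 sets of littermates, and the number in each animal's label was read as its set, which gives 6 litters of 1 KO and 1 WT. Neither the targeted alleles, the mice's age nor the exons removed are given in the sources used here, so it is not known whether the Tert and Terc probes lie inside the deleted parts.

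In the telomerase enzyme, TERT is the reverse transcriptase and Terc the RNA that carries the template. Dyskerin (Dkc1), NOP10, NHP2 and GAR1 form the core that binds the H/ACA motif of Terc, and the same 4 proteins bind the H/ACA small nucleolar RNAs (snoRNAs), in which dyskerin turns uridine into pseudouridine. TCAB1, the product of Wrap53, brings RNAs of this kind to Cajal bodies, and TEP1 is a protein shared with the vault particle. In the adult mouse, many somatic tissues retain some Tert transcript, unlike most adult human tissues, and the core genes are transcribed in nearly all cells.

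The 250 bases before the annotated start are shown for Tert, the gene targeted in the mTERT line, and for Dkc1, Nop10 and Nhp2, the core genes whose levels differed between sets of mice. The sequences are from RefSeq on GRCm38.p6, where each of the 4 windows lies on the plus strand, at chr13:73626661-73626910, chrX:75095604-75095853, chr2:112261676-112261925 and chr11:51619523-51619772. Capitals mark matches on either strand to the letters GGGCGG of the GC box, to those of the CCAAT box, to the letters CACGTG of the E-box, or to the letters CCGGAAG of an ETS site. A capital stretch can hold overlapping matches.
Tert: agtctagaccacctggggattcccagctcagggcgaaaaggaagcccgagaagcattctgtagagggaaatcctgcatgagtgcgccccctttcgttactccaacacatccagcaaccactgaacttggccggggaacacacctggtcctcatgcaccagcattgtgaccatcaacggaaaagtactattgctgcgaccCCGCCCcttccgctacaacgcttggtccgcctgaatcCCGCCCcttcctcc
Dkc1: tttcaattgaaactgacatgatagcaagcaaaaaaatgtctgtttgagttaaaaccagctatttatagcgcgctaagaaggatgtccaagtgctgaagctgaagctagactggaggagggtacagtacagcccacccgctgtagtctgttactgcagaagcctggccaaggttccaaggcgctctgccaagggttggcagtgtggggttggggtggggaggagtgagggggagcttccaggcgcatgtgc
Nop10: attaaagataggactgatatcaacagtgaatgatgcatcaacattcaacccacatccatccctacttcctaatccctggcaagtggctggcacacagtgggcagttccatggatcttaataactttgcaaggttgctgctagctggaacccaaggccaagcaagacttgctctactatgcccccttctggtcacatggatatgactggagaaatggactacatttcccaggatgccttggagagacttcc
Nhp2: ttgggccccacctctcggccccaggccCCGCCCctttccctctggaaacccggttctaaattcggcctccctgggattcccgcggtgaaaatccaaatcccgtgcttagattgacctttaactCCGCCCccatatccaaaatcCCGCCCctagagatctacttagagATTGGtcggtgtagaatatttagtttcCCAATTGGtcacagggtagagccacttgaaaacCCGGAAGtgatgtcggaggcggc

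The Tert window held 2 GC boxes, with the nearest starting 14 bases before the start of the transcript. The Nhp2 window held 3 GC boxes, 3 CCAAT boxes and 1 ETS site. None of these letters occurred in the Dkc1 and Nop10 windows, which concerns these windows only. Among 32851 promoter windows of the same length, 32.7% held a GC box, 33.8% a CCAAT box, 6.02% an E-box and 6.91% an ETS site. The share of G and C was 57.2% for Tert, 52.0% for Dkc1, 47.2% for Nop10 and 54.8% for Nhp2, against a median of 52.4% over all windows.

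All values are log2 intensities as deposited, and levels of different probes were not set against each other. The background of an array was taken as the 95th percentile of its 1027 olfactory receptor genes, which are used mainly in the nose, and it lay between 4.21 and 4.49. Hepatocyte markers were above it on all 12 arrays for 8 of 8 genes, with Alb, the gene of serum albumin, at 13.45 to 13.61. Mean levels of 11 acinar pancreas genes were 6.95 to 11.39 on 5 arrays (mTERT KO 1, mTR KO 1, mTERT WT 1, mTERT WT 2 and mTR WT 2), against 3.78 to 3.99 on the other 7. Mean levels of 12 skeletal muscle genes were 6.48 and 6.91 on 2 arrays (mTERT WT 3 and mTERT WT 1), against 3.82 to 4.45 on the other 10. In a whole liver, fewer cells of a type and less RNA per cell cannot be told apart.

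The targeted genes come first, since they bear on the labels. Tert read 3.95, 4.07 and 4.15 in the 3 mTERT KO livers, against 4.13, 4.78 and 4.83 in the mTERT WT livers. It read 4.71, 4.90 and 5.02 in the mTR KO livers, against 4.58, 4.84 and 5.04 in the mTR WT livers. The mTERT KO readings were the lowest apart from an overlap with mTERT WT 1, whose 4.13 lay just under the highest mTERT KO value, 4.15.

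Within sets, the mTERT KO liver had the lowest of the 4 readings in 3 of 3 sets, which held for 213 of 20197 probes tested (1.05%). In set 1 both the mTERT KO and the mTERT WT reading lay below the background of their arrays, so the order there is between readings that carry no level. The differences between mTERT KO and mTERT WT littermates were −0.18, −0.71 and −0.68 log2 units in sets 1, 2 and 3. In the mTR line the same differences were 0.13, 0.06 and −0.03.

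All 3 mTERT KO readings lay below the background of their own array, as did that of mTERT WT 1. The other 8 readings lay above it, by little, since the highest was 5.04. Group means were 4.87 ± 0.155 in mTR KO, 4.82 ± 0.231 in mTR WT, 4.58 ± 0.391 in mTERT WT and 4.05 ± 0.10 in mTERT KO livers (SD, n = 3 each). In this order the ranges of each group and the next overlapped.

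The fit over all probes gave a Tert difference of −0.52 in mTERT KO against mTERT WT (SE 0.183, 95% interval −0.93 to −0.12). Its unadjusted p was 0.0147 and its limma adjusted p was 1.00, so it did not pass. The 0.05 threshold was passed by 0 of 20197 probes (0%) in this comparison, and 283 had an unadjusted p under 0.05. Tert ranked 60 of 20197 by p. With the litter as a replicate block the SE was 0.112, the interval −0.77 to −0.28, the unadjusted p 0.000898, the rank 29 and the limma adjusted p 0.622. No fold is given for this comparison, because all mTERT KO readings and that of mTERT WT 1 were below background.

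The mTERT WT readings set the size of this difference. Without mTERT WT 1, the reading below background, it was −0.75, and without mTERT WT 3 it was −0.40. The mTERT WT 1 liver also carried the raised pancreas and muscle markers (7.48 and 6.91), and their part in its Tert reading was not tested.

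The sharper contrast was between the 2 knock-out groups, which come from different lines and litters, so line and genotype cannot be told apart in it. Between the WT livers of the 2 lines, Tert was 0.24 higher in the mTR line (SE 0.183, 95% interval −0.16 to 0.65). Tert was 0.82 higher in mTR KO than in mTERT KO livers (SE 0.183, 95% interval 0.42 to 1.22), with an unadjusted p of 0.00083, rank 7 of 20197 and a limma adjusted p of 1.00. Its readings did not overlap, at 4.71 to 5.02 in mTR KO and 3.95 to 4.15 in mTERT KO livers, which held in this direction for 2.63% of probes. With the set number as a block the limma adjusted p was 0.085 and Tert ranked 2, after a probe of Arsb, the gene of a lysosomal sulfatase. All 3 mTR KO readings were above background. With the background of the mTERT KO arrays taken as their level, the mean of Tert was 1.49-fold higher in mTR KO than in mTERT KO livers. This value bounds the difference of the measured means only and carries no sampling error of the 3 livers per group. No probe (0%) passed in this comparison without the block, and 384 had an unadjusted p under 0.05 in limma.

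In the mTR line, where the Tert gene is intact, Tert differed by 0.05 between mTR KO and mTR WT livers, with overlapping ranges. The KO effect on Tert was 0.58 more positive in the mTR line than in the mTERT line (SE 0.259, 95% interval 0.01 to 1.14, unadjusted p 0.0467, limma adjusted p 1.00). With the litter block its unadjusted p was 0.00462 and its limma adjusted p 0.751.

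**Figure D1:**
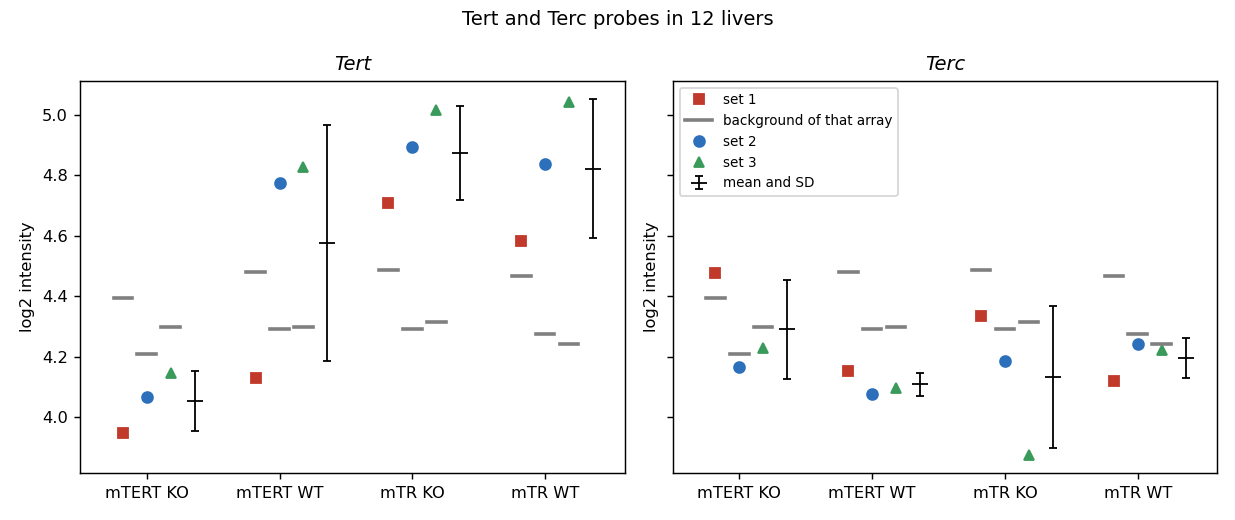
Log2 intensity of Tert and Terc in each of the 12 livers, by group, with set 1, set 2 and set 3 marked by symbol, the mean and SD of each group as a tick with error bars and the background of each array as a grey dash. The 3 mTERT KO readings of Tert, 3.95 to 4.15, lie below the dashes of their arrays, and all but 1 of the 12 Terc readings do so too.

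Terc, targeted in the mTR line, could not be read with its probe. It read 4.33, 4.18 and 3.87 in mTR KO livers, against 4.12, 4.24 and 4.22 in mTR WT livers. It read 4.48, 4.17 and 4.23 in mTERT KO livers, against 4.15, 4.08 and 4.10 in mTERT WT livers. A single reading of 12, that of mTERT KO 1, was above the background of its array.

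Livers labelled mTR KO thus read about as high as the other livers. The difference was −0.06 in mTR KO against mTR WT and 0.18 (SE 0.125) in mTERT KO against mTERT WT, with limma adjusted p of 1.00 for each. The mTERT KO readings lay above the mTERT WT readings without overlap, as for 2.47% of probes in this direction, at levels that were below background on all arrays but 1. The Terc probe therefore gives no check of the mTR genotype labels. In mTR KO against mTR WT livers 0 of 20197 probes (0%) passed, and 195 had an unadjusted p under 0.05 in limma.

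Of the nearest genes with a probe on either side of each targeted gene, 2 were read above background, and neither passed the test. Clptm1l, before Tert on chromosome 13 and read well above background (mean 9.09), differed by −0.05 in mTERT KO against mTERT WT and by 0.06 in mTR KO against mTR WT (SE 0.10 each). Fcgr1, the gene of a high-affinity antibody receptor and the gene before Terc on chromosome 3, differed by 0.10 and −0.04 (SE 0.212 each). Slc6a18, after Tert, and BC107364, after Terc, were below background on all 12 arrays and were not tested. Gene order was taken from RefSeq, GRCm38.p6.

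The 4 core genes and Wrap53 were above background on 12 of 12 arrays, and their group means were close in KO and WT livers of both lines. Dkc1, the pseudouridine synthase, read 5.97, 7.04 and 6.71 in mTERT KO livers, against 6.02, 6.81 and 6.84 in mTERT WT livers. It read 6.02, 6.96 and 6.71 in mTR KO livers, against 6.16, 6.88 and 6.66 in mTR WT livers. In every group the first liver, that of set 1, was the lowest, and the group means lay between 6.56 and 6.57.

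Nop10, which bridges dyskerin and NHP2, read 8.43, 7.65 and 7.55 in mTERT KO livers, against 8.19, 7.60 and 7.65 in mTERT WT livers. It read 8.36, 7.86 and 8.0 in mTR KO livers, against 8.38, 7.75 and 7.78 in mTR WT livers. Here the first liver of every group was the highest.

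Nhp2, the gene of an RNA-binding protein of the core, read 7.49, 7.19 and 7.23 in mTERT KO livers, against 7.60, 7.04 and 7.23 in mTERT WT livers. It read 7.75, 7.37 and 7.38 in mTR KO livers, against 7.70, 7.35 and 7.31 in mTR WT livers. The first liver was again the highest in every group.

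Gar1, which joins the particle last and takes the place of NAF1, read 5.39, 5.6 and 5.61 in mTERT KO livers, against 5.56, 5.42 and 5.46 in mTERT WT livers. It read 5.36, 5.52 and 5.66 in mTR KO livers, against 5.44, 5.49 and 5.52 in mTR WT livers. Wrap53 read 5.71, 5.53 and 5.27 in mTERT KO livers, against 5.33, 5.44 and 5.46 in mTERT WT livers. It read 5.38, 5.42 and 5.43 in mTR KO livers, against 5.46, 5.33 and 5.53 in mTR WT livers. For both genes all groups overlapped.

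**Figure D2:**
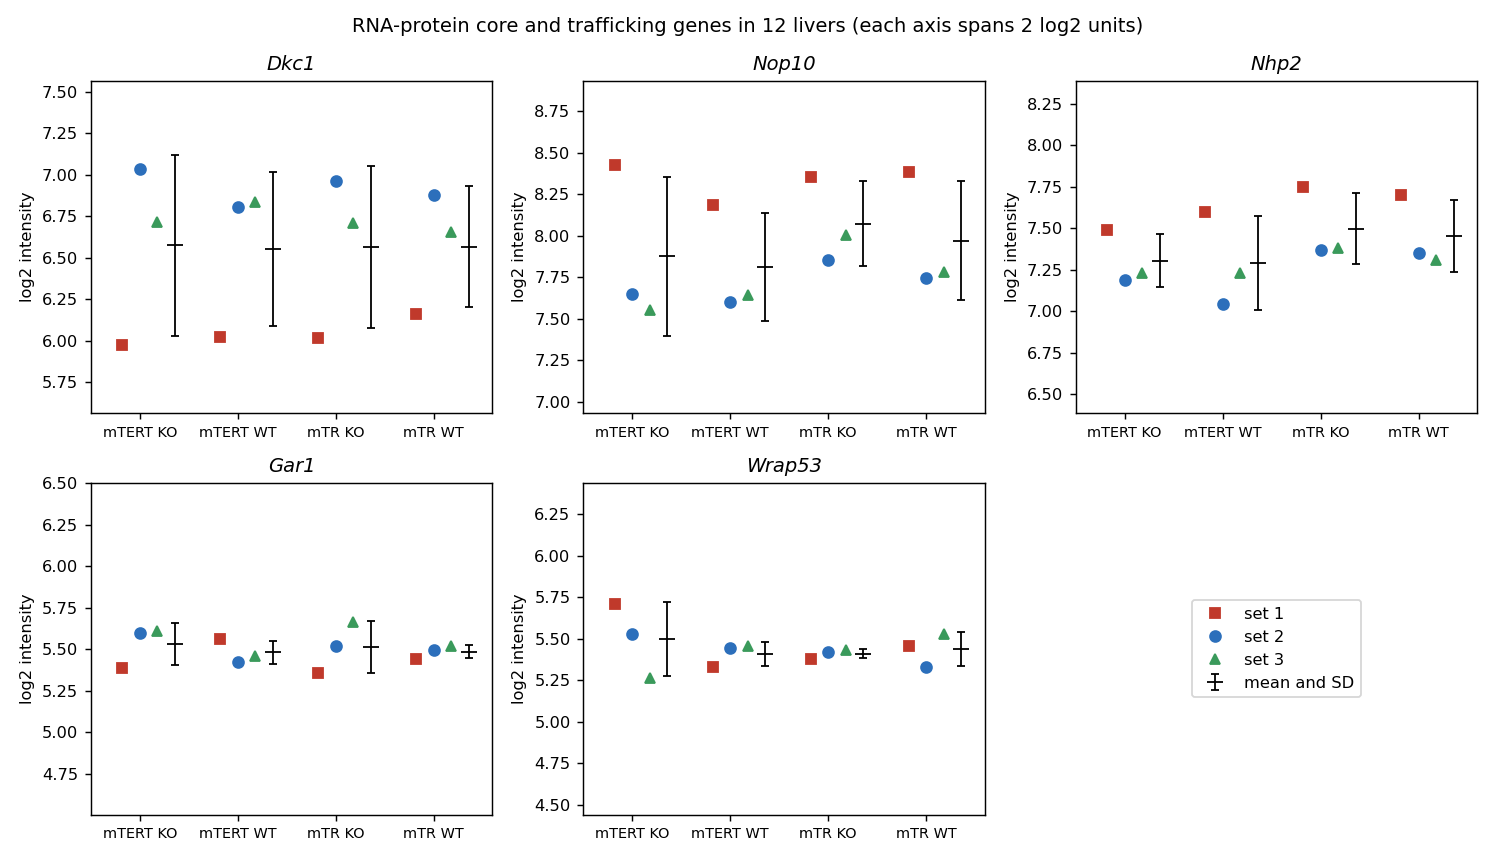
Log2 intensity of Dkc1, Nop10, Nhp2, Gar1 and Wrap53 in each of the 12 livers, by group, with the sets marked by symbol and the mean and SD of each group as a tick with error bars. The set 1 livers sit at the bottom of every group for Dkc1 (5.97 to 6.16) and at the top for Nop10 (8.19 to 8.43) and Nhp2 (7.49 to 7.75), while the means of KO and WT groups lie close together.

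None of these 5 genes passed the test in either KO comparison or in the average of both KO effects, where 0 of 20197 probes (0%) passed and 143 had an unadjusted p under 0.05 in limma. In mTERT KO against mTERT WT the differences were 0.02 for Dkc1, 0.06 for Nop10, 0.01 for Nhp2, 0.05 for Gar1 and 0.09 for Wrap53. In mTR KO against mTR WT they were −0.00 for Dkc1, 0.10 for Nop10, 0.04 for Nhp2, 0.03 for Gar1 and −0.03 for Wrap53.

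Fits with a block showed how large a KO effect these data leave room for. Averaged over both lines and with the litter as a block, the Dkc1 effect was 0.01 with a 95% interval of −0.14 to 0.16, against −0.50 to 0.52 without the block. The Nop10 effect was 0.08, with an interval of −0.07 to 0.23 with the block and −0.32 to 0.48 without it. With the block the intervals were −0.11 to 0.16 for Nhp2, −0.12 to 0.19 for Gar1 and −0.14 to 0.21 for Wrap53. The SE shrank 3.39-fold for Dkc1, 2.74-fold for Nop10 and 1.99-fold for Nhp2 with the block, and 1.07-fold for Gar1 and 1.03-fold for Wrap53. A p that misses the threshold does not show equal levels, and these intervals bound the difference. With the set number over both lines as the block, the SE of the average effect was 0.067 for Dkc1 and 0.068 for Nop10. With the litter block it was 0.069 and 0.067, so the narrowing was not particular to the littermate pairs.

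**Figure D3:**
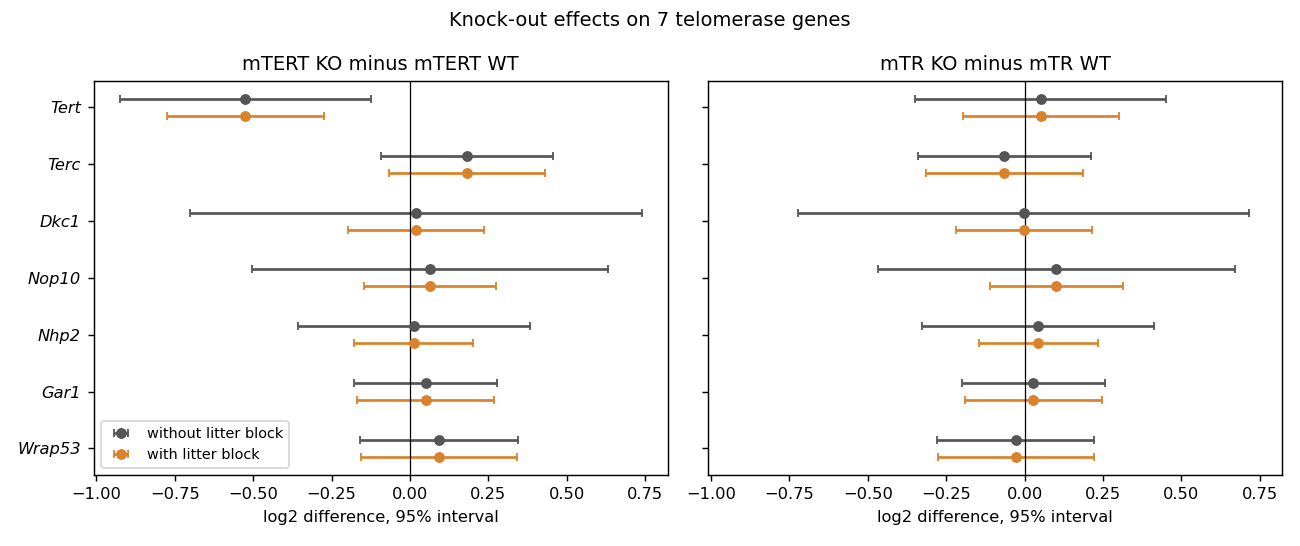
Log2 differences of the 7 genes in mTERT KO against mTERT WT and in mTR KO against mTR WT, with 95% intervals from the fit without a block and with the litter as a block. Tert in the mTERT line is the 1 value whose interval lies below 0 in both fits (−0.93 to −0.12 and −0.77 to −0.28), and the intervals of Dkc1 and Nop10 narrow most with the block.

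Genes that make or steer the complex were counted in the same comparisons. A total of 122 tested genes and RNAs in 11 lists covered H/ACA assembly factors, telomerase RNA processing, Cajal body and TCAB1 folding factors, telomerase cofactors, Tert transcription factors, the vault partners of TEP1, the C/D snoRNA core proteins, nucleolar ribosome factors, H/ACA snoRNAs, C/D snoRNAs and Cajal body RNAs. In either line 0 of the 122 passed, against 0% of all probes. List medians ran between −0.14 and 0.03 in mTERT KO against mTERT WT, where the median over all genes was 0.01. The −0.14 belongs to the vault partners of TEP1, where only 1 gene was tested. In mTR KO against mTR WT they ran between −0.10 and 0.09, where the median over all genes was −0.02.

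The values with the smallest p in some lists show the scale of these differences. In mTERT KO against mTERT WT livers, Pih1d1, part of the R2TP chaperone that assembles the H/ACA core, differed by 0.17 (SE 0.111) and Ruvbl1, an ATPase of the same chaperone, by −0.20 (SE 0.156). Exosc10, a nuclease of the nuclear exosome, differed by −0.24 (SE 0.141). In mTR KO against mTR WT livers, Coil, the scaffold of Cajal bodies, differed by 0.26 (SE 0.128) and Pinx1, a telomerase inhibitor known from human cells, by 0.14 (SE 0.135). Klf4, a transcription factor known to bind the Tert promoter in mouse stem cells, differed by −0.19 in mTERT KO against mTERT WT and by −0.13 in mTR KO against mTR WT (SE 0.115 each). Snora23, an H/ACA snoRNA, differed by −0.44 and −0.87 (SE 0.472 each).

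Some telomerase genes differed between the sets of mice. Set 1, with 1 liver of each group, was compared with sets 2 and 3 in a fit that kept the 4 groups. Of the 7 genes, 2 were higher and 2 lower in set 1, against 38.2% of all 20197 probes called (17.1% higher and 21.1% lower). Set 1 thus stood apart across the array, and 7 genes are too few to tell their share from that of all probes. The 4 arrays of set 1 come from 2 litters, with 1 of each line, so the SE may be too small.

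Dkc1 was 0.78 log2 units lower in set 1 (difference −0.78, SE 0.084, 95% interval −0.96 to −0.60, limma adjusted p 3.23e-05), which is 0.583 of the level in sets 2 and 3. Its readings were 5.97 to 6.16 in set 1 and 6.66 to 7.04 in sets 2 and 3, without overlap, as for 12.6% of probes in this direction.

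Nop10 was higher in set 1 by 0.61 (SE 0.070, limma adjusted p 5e-05), or 1.53-fold, with 8.19 to 8.43 in set 1 and 7.55 to 8.0 in sets 2 and 3. Nhp2 was higher by 0.37 (SE 0.060, limma adjusted p 0.000546), or 1.29-fold, with 7.49 to 7.75 in set 1 and 7.04 to 7.38 in sets 2 and 3. Neither gene overlapped between sets, as for 10.4% of probes in this direction. These calls are values of single genes in a comparison that called 38.2% of all probes, and nothing particular to the core is read from them.

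Tert was lower in set 1 by a difference of −0.36 (SE 0.083, limma adjusted p 0.00495), though 2 of the 4 set 1 readings were below background. Gar1 (−0.10, limma adjusted p 0.271), Terc (0.13, limma adjusted p 0.211) and Wrap53 (0.04, limma adjusted p 0.713) did not pass.

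Other measures moved with the set as well. Background was 4.4 to 4.49 on set 1 arrays and 4.21 to 4.31 on the others. The median level of the olfactory receptor genes was 3.83 to 3.90 on set 1 arrays and 3.65 to 3.75 on the others. Of these 1027 genes, 310 passed the filter on the mean over all arrays (3.90) and were tested. Their median difference was 0.168, with 114 called higher and 4 lower. Dim genes that read higher in set 1 pass such a filter more easily, so this split of calls may be partly built in. Pancreas markers were raised in 3 of the 4 set 1 livers. The set 1 liver without them, mTR WT 1 (pancreas 3.86, muscle 4.18), read 8.38 for Nop10 and 7.70 for Nhp2, inside the range of the other set 1 livers. Its 6.16 for Dkc1 was the highest of set 1 and below every liver of sets 2 and 3. This is a single liver, and the part of the pancreas markers in the set differences was not tested. The part of the background shift in them was not tested either.

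Over the 12 arrays, the set accounted for 96.2% of the variance of Dkc1, 84.1% of that of Nop10 and 74.8% of that of Nhp2, against a median of 40.3% over all tested probes. The group accounted for 0.0322%, 9.85% and 19.9% in these genes, against a median of 14.9%. Tert was the reverse, with 72.5% by group and 21.3% by set, though only 8 of its 12 readings were above the background of their arrays. For Wrap53 the shares were 11.2% by group and 3.27% by set.

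Correlations between members followed the sets in part. Nop10 and Nhp2 correlated at r = 0.90 over the 12 arrays and at r = 0.77 over the 8 arrays of sets 2 and 3. Dkc1 and Nop10 correlated at r = −0.89 over the 12 arrays and at r = −0.14 over the 8, and Dkc1 and Nhp2 at r = −0.82 and r = −0.10. The negative correlations of Dkc1 thus rested on set 1, while that of Nop10 with Nhp2 was also present without it. These are descriptions, since the arrays share sets and litters.

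The same lists were counted in set 1, where 36.1% of the 14159 named genes tested were called. Of 8 H/ACA assembly factors, 5 were lower and 1 higher in set 1, with a median difference of −0.31 against −0.04 over all of these genes. Lower were Nufip1 (−0.43), Naf1 (−0.39), Rpap3 (−0.33) and Ruvbl1 (−0.32), among others, which assemble the core on its RNA, and higher was Nolc1 (0.35), a nucleolar chaperone of these particles. Of 19 H/ACA snoRNAs, the main RNA cargo of the same core, 18 were higher and 0 lower, with a median of 0.89. Snora44 was higher by 1.70, Snora3 by 1.55, Snora7a by 1.38 and Snora30 by 0.89.

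C/D snoRNAs, which use another protein core, showed the same direction, with 27 of 30 higher, 0 lower and a median of 1.46. In that core, Snu13 was higher by 0.74 and Nop58 was lower (−0.39), out of 4 tested. Both Cajal body RNAs tested were higher, Scarna17 by 1.12 and Scarna13 by 0.41. The higher readings were therefore not limited to the RNAs bound by dyskerin, NOP10, NHP2 and GAR1.

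Of 18 genes of telomerase RNA processing, 2 were higher and 6 lower, among them Xrn1 (−0.66), a 5′ to 3′ exonuclease, Dhx36 (−0.63), a helicase that unwinds G-quadruplexes, Ncbp2 (−0.56), of the cap-binding complex, and Dis3 (−0.55), an exosome nuclease. These are 8 calls of 18, against 36.1% of all genes, and 18 genes are too few to tell the shares apart. Of 10 Cajal body and TCAB1 folding genes, 2 were lower, both subunits of the TRiC chaperonin (Cct8, −0.39, and Tcp1, −0.31). Of 8 cofactors, Ptges3, the p23 co-chaperone, was lower (−0.97), as was Nvl (−0.49), and Smg5 was higher (0.46).

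Of 12 Tert transcription factors, 3 were lower (Gabpa, −0.65, Gabpb1, −0.56, and Sp3, −0.40) and 1 was higher (Men1, 0.32). These 4 calls of 12 are near the share of all genes, 36.1%. As background, Gabpa and Gabpb1 are the subunits of an ETS factor and Sp3 binds GC boxes. The major vault protein gene Mvp was higher (0.26). Nucleolar ribosome factors were split, with 3 higher and 4 lower of 10, among them Ncl (−0.83), Npm1 (−0.38), Bop1 (0.45) and Pes1 (0.25).

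**Figure D4:**
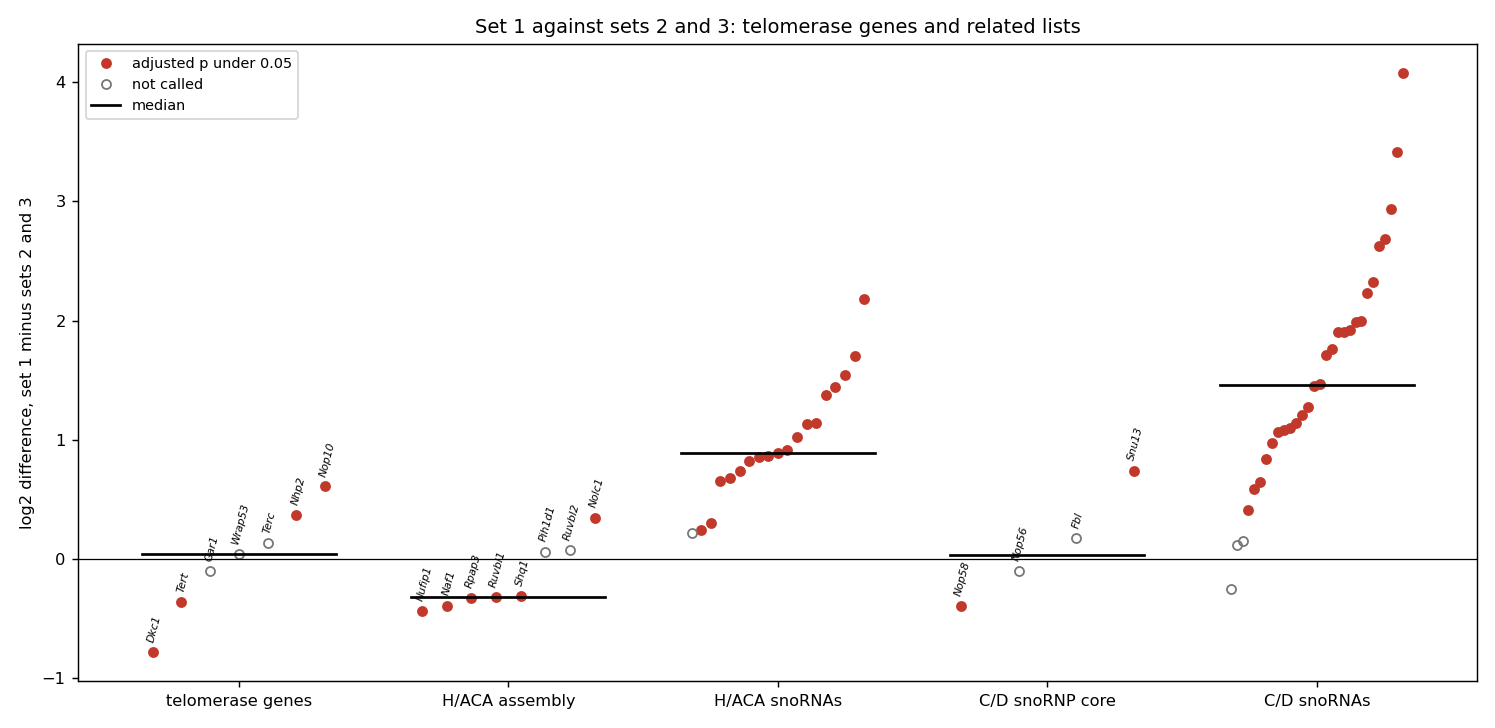
Log2 difference of set 1 minus sets 2 and 3 for the 7 telomerase genes and 4 related lists, each point a gene or RNA, filled where the limma adjusted p was under 0.05, with list medians as lines. The H/ACA assembly factors lie mostly below 0 (median −0.31), both groups of snoRNAs above it (medians 0.89 and 1.46), and Dkc1 lies opposite to Nop10 and Nhp2.

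For each telomerase gene read above background on average, the genes with the most similar pattern were sought among 14158 named genes by Pearson correlation over the 12 arrays. The closest to Tert were Sdha, a subunit of mitochondrial succinate dehydrogenase (r = 0.93, rho = 0.94), and Mccc2, a subunit of a leucine-degrading carboxylase (r = 0.84, rho = 0.90). Over the 8 arrays of sets 2 and 3, r was 0.93 for Sdha and 0.87 for Mccc2. Both genes lie on chromosome 13, as Tert does, with 13 and 128 protein-coding genes in between in RefSeq.

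Sdha read 10.11, 10.46 and 10.38 in mTERT KO livers, against 10.30, 10.77 and 10.74 in mTERT WT livers. It read 10.51, 10.86 and 10.90 in mTR KO livers, against 10.57, 10.62 and 10.92 in mTR WT livers. As with Tert, the mTERT KO liver was the lowest in each of the 3 sets, here at a level far above background. This order held for 139 of 14146 named genes (0.98%). Sdha was picked for its likeness to Tert, so a shared order is largely built in. The difference between mTERT KO and mTERT WT was −0.28 (SE 0.164, limma adjusted p 1.00), and with the litter block its SE was 0.091 and its limma adjusted p 0.929, so it did not pass.

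Dkc1 was closest to Guf1, a mitochondrial translation factor (r = 0.98), and Rab14, a small GTPase of endosomes (r = 0.98), with r = 0.68 and r = 0.72 over sets 2 and 3. Nop10 was closest to Uqcrq, a subunit of respiratory complex III (r = 0.97), and to the C/D snoRNA Snord42a (r = 0.96), with r = 0.90 and r = 0.88 over sets 2 and 3. The closest to Nhp2, Mir496a and Defb18 (r = 0.96 and r = 0.95), were below background on all 12 arrays, as was Psd2, the second for Gar1. Gar1 was closest to Asb6 (r = 0.90) and Wrap53 to Map3k13 (r = 0.92) and Cnnm4 (r = 0.89). A search over so many genes returns high correlations in any case, and the arrays share sets.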

How the data were processed

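Total RNA was amplified once with random primers, labelled with biotin and hybridised to 1-colour Affymetrix arrays, per the labels' protocols. The values are log2 intensities as deposited by the authors. GCOS 1.4, PLIER and Affymetrix Expression Console are listed in the submitters' processing notes, with no role. Base 2 was inferred from the range of 2.62 to 13.83, and the normalization is not given in the sources used here.

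Of 28853 probes, 21789 had 1 symbol, 1621 several and 5443 none. Symbols were updated through RefSeq (21698 matched). Array medians were 4.37 to 4.43. A gene was read by its highest-mean probe. With limma 3.58.1 under R 4.3.3, 4 group means were fitted over 12 arrays with eBayes, for the 20197 probes at or above the 30th percentile of the mean (3.90). Two-sided p-values were adjusted by Benjamini-Hochberg over all tested probes, with a threshold of 0.05. The code was tested on simulated data. Array number limits precision.

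Members, lists and tests were chosen with earlier results of these data known. Named genes were the members, list members with the smallest p, the nearest neighbours and the 2 genes most like each member.

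KO and WT arrays of 1 number deviated together (mTERT line: r = 0.692, 0.135 and 0.623, mTR line: r = 0.458, 0.151 and 0.552), though each KO 2 correlated more with WT 3 (0.416 and 0.464). Set 1 stood apart across the array, so arrays of 1 number can deviate together without being littermates, and these correlations do not test the litters. The series text states littermates, so the litter was a block in an alternative fit. Other alternatives concerned normalization, filters, eBayes, array weights and left-out arrays.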

Additional observations from a re-analysis of the deposited data

How the results depend on the processing

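In the group comparisons, 0 of 974 values of the telomerase genes under the alternatives passed, and the 4 genes called in set 1 stayed called in each of their alternatives, with ranges of −0.84 to −0.74 for Dkc1, 0.54 to 0.67 for Nop10, 0.34 to 0.42 for Nhp2 and −0.43 to −0.26 for Tert. Tert in mTERT KO against mTERT WT ran from −0.75 (without mTERT WT 1) to −0.40 (without mTERT WT 3). The replicate block for the litter left the count of calls at 0 in both KO comparisons and changed no call; Tert kept −0.52 with an adjusted p of 0.622 in limma.

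With 1 probe per gene, 5064 were called in set 1, and leaving out single arrays gave 5831 to 7660. Centring each array on its median gave 3010 higher and 4568 lower in set 1, against 3456 and 4253. Array weights gave 1 call in mTR KO against mTERT KO, a probe of Arsb (0.90). Without the 4 arrays of set 1 there was 1 call in each KO comparison and in their average, the probe of Dmbt1 (−3.91, −3.17 and −3.54). Leaving out single arrays gave 0 to 41 calls in mTERT KO against mTERT WT (1 without mTERT WT 1, Glrx, at 1.00), 0 to 28 in the average, 0 to 30 in the difference of KO effects and 0 to 42 in mTR WT against mTERT WT, each highest without mTERT WT 2; the cause was not tested. These 3 genes were named after their values were seen. None of the calls was a telomerase gene. A filter at the 50th percentile removed Terc, and the alternative of another probe per gene was not run because each member had 1 probe.

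Readings near background limit Tert and Terc: a Tert level below it cannot be told from none, and a deletion outside the probe would not show.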

Other observations

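The position of Tert beside Sdha and Mccc2 was followed along chromosomes after the values were seen, as a description without a test. In 139 named genes the mTERT KO liver was the lowest of its set in all 3 sets, and 12 of them (8.63%) lie on chromosome 13, against 536 of 14146 genes tested (3.79%). Tert, Sdha and Mccc2, whose positions on chromosome 13 prompted the look, are among these 12, so the share is partly built in. In the 200 genes with the mTERT KO liver highest in all 3 sets, 8 (4.0%) lie there. For the mTR KO liver the numbers on chromosome 13 were 17 of 312 genes lowest (5.45%) and 3 of 149 highest (2.01%). On chromosome 3, which carries Terc, the mTR KO liver was lowest for 16 of 312 genes (5.13%) and highest for 10 of 149 (6.71%), against 4.70% of all tested. Ranked by the smallest gap to the next liver of a set, the 139 genes began with Arsb, on chromosome 13 (0.502), and Tert (0.181, between readings below background in set 1), and Sdha came 5th with 0.155. The line's breeding history is not given in the sources used here.

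Dmbt1, the probe called without set 1, also chosen after its values were seen, read 7.40, 3.70 and 3.67 in mTERT KO livers, against 5.08, 7.12 and 8.06 in mTERT WT livers. It read 9.34, 3.80 and 3.78 in mTR KO livers, against 5.28, 6.82 and 7.10 in mTR WT livers. In set 1 the KO liver of both lines was thus higher than its WT littermate, and in sets 2 and 3 it was lower. The set 1 KO livers also had the highest pancreas marker means, 9.94 and 11.39, and the part of these in the Dmbt1 readings was not tested.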
